A study of Homo sapiens with 6 samples.

Results

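Genes of the Wnt pathway were followed in MDA-MB-468 cells after 10 days with a nitric oxide donor. MDA-MB-468 is a human breast cancer cell line of the basal, triple-negative kind. The 44 genes are a list of ligands, receptors, antagonists, signal carriers and targets, taken by gene name from the 45019 rows of the deposited tables. The rule used no measured value, but the list was chosen with earlier results of these data known. DETA/NO, which gives off nitric oxide over hours in medium, was added at 100 µM (the µ is a symbol-font character in the labels) after 4 h of adherence, and cells were collected, pooled within each replicate and replated every 48 h. The other cells are labelled untreated, also at day 10, with the same 4 h of adherence and replating every 48 h. Each group had 3 labelled samples, but DETA/NO replicates 1 and 2 had files with the same values and the same library name, and were counted as 1 library, called here the shared DETA/NO library. This left n = 2 DETA/NO libraries and n = 3 untreated libraries of a single cell line. Whether the replicates began as separate cultures is not stated in the labels, so p-values reflect nothing beyond the spread among these libraries, which may be technical.

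Wnt proteins are secreted, lipid-modified signals that bind Frizzled receptors together with the co-receptors LRP5 or LRP6. Without a signal, a destruction complex built on AXIN and APC marks beta-catenin for degradation, and with one, beta-catenin enters the nucleus and works with TCF/LEF factors on target genes, several of which encode inhibitors of the pathway itself. Some Wnt proteins, WNT5A among them, act largely through routes that do not need beta-catenin, and the pathway takes part in the growth and branching of the mammary epithelium.

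By the reads recovered from the values, each library held 28897422 to 34637343 reads. The values are normalized read counts, called normalized reads below. In the line's own markers, EGFR, KRT5, KRT17, EPCAM and CDH1 were abundant in every library, with values from 4239 up, while KRT14 had 709 to 731. EGFR, KRT5 and KRT6B were called higher after DETA/NO, 3 of 7 basal markers. Of the luminal receptors, PGR did not exceed 5.73 normalized reads. ESR1 was called higher, with 925 and 1093 in DETA/NO libraries and 832, 846 and 823 in untreated libraries (log2 fold change 0.27; limma adjusted p = 0.000675). ERBB2 was called lower, with 1429 and 1529 in DETA/NO libraries and 1837, 1830 and 1981 in untreated libraries (log2 fold change -0.35; limma adjusted p = 3.36e-07). Among markers of other cell types, COL1A2, DCN, LUM and CD3E did not exceed 1.91 in any library. Of the immune markers, CD14 had 390 and 456 normalized reads in the DETA/NO libraries and 909, 963 and 945 in the untreated libraries, PTPRC had 34.3 and 33.2 in DETA/NO libraries and 14.3, 8.83 and 16.6 in untreated libraries, and LYZ did not exceed 3.92. CD14 was called lower and PTPRC higher, at log2 fold changes of -1.15 and 1.33. The 4 endothelial markers summed to 499 and 558 in DETA/NO libraries and to 325 to 363 in untreated libraries. CDH5 (log2 fold change 1.20) and KDR (0.55) were called higher, while PECAM1 (-0.16) and VWF (0.40) were not called and had overlapping libraries. The 6 fibroblast markers summed to 849.9 and 840.4 in DETA/NO libraries and to 578 to 635 in untreated libraries. Nearly all of this was COL1A1 (called higher, log2 fold change 0.49). The part of these differences in the results below was not tested. In bulk RNA, fewer cells expressing a gene and less RNA per cell cannot be told apart.

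Of the 44 Wnt genes, 36 reached a mean of 10 normalized reads over the 5 libraries and were tested. The others were WNT7A, WNT11, FZD8, DKK3, LEF1 and LGR5, none of which exceeded 7.76 normalized reads in any library, and RNF43 and NKD2, which were listed at 0 in every library. All 36 tested genes had a mean of at least 19.0 in the untreated libraries and at least 20.7 in the DETA/NO libraries, so none passed the filter through 1 group alone. For RNF43, 73.9% of its exon bases are shared with exons of other genes, and how such reads were counted is not given, so its value is not read as a level of expression.

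After DETA/NO, DKK1 and WNT5A were the Wnt genes that rose most, SOSTDC1 and AXIN2 those that fell most, while CTNNB1, APC, TCF7L1 and TCF7L2 were not called. In limma, at a Benjamini-Hochberg adjusted p under 0.05, 7 of the 36 tested genes rose (19.4%) and 9 fell (25%), together 44.4%. Over all 16409 genes tested, 21.7% rose and 21.7% fell, together 43.4%, so that the share of Wnt genes called was close to the share of all genes. The median log2 fold change was -0.0097 in the Wnt genes and -0.00016 in all tested genes, and the median size regardless of sign was 0.15 and 0.18. Changes of at least 2-fold were called in 3 Wnt genes, DKK1, WNT5A and SOSTDC1, 2 higher and 1 lower, against 3.78% of all tested genes (2.21% higher and 1.58% lower). The DETA/NO libraries lay wholly above the untreated ones in 12 Wnt genes and wholly below in 12, against 30.4% above and 30.8% below, together 61.2%, over all tested genes. All calls were of Wnt genes with a mean of at least 100 normalized reads. Of 6 Wnt genes with a mean of 10 to 100 normalized reads 0 were called by limma as run here, by edgeR or by DESeq2 (22.6% of all genes in that range by limma; WNT3A and FZD9 had an unadjusted limma p under 0.05, and limma without its trend and robust option called WNT3A, WNT10B and FZD9), of 16 with 100 to 1000 there were 10 (45.2% of all genes), and of 14 above 1000 there were 6 (57.9% of all genes).

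**Figure D1:**
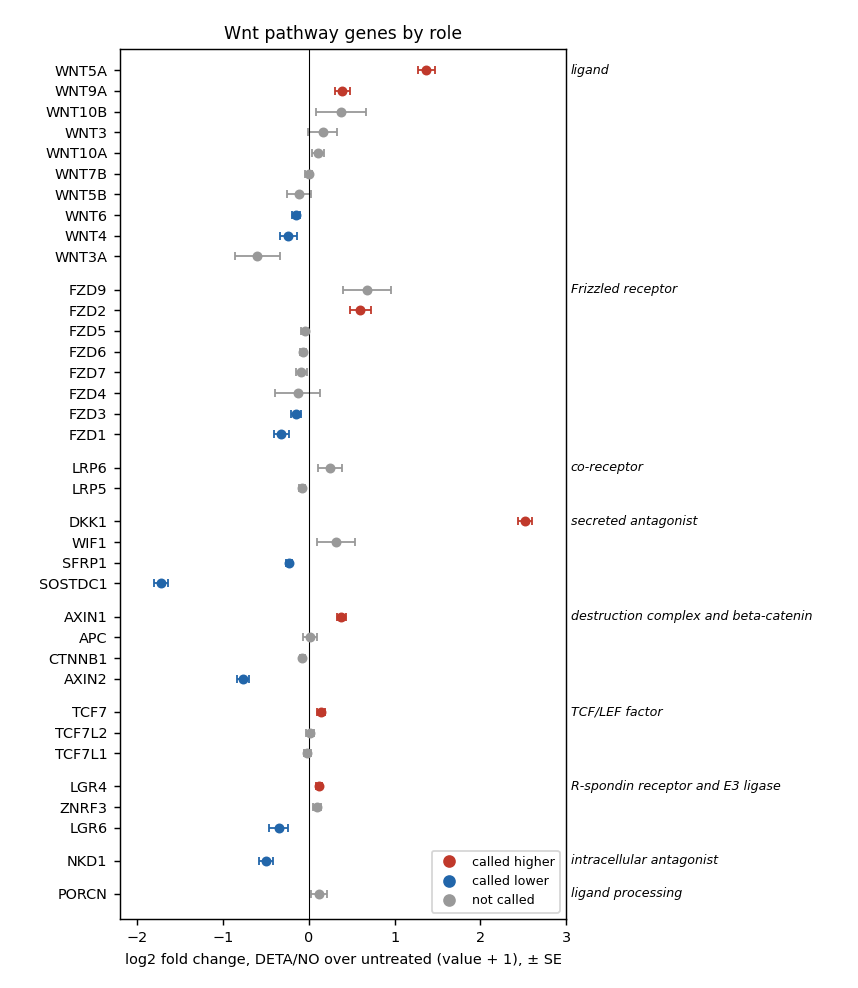
Log2 fold change of the 36 tested Wnt genes, DETA/NO over untreated on the log2(value + 1) scale, with its SE as a bar, grouped by role. Red points were called higher, blue points lower and grey points were not called. DKK1 at 2.52 and SOSTDC1 at -1.72 stand at the ends of the range, both secreted antagonists.

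The 2 secreted antagonists at the ends of this range bind the same co-receptors and moved in opposite directions. DKK1 encodes Dickkopf-1, which blocks LRP5 and LRP6, and is itself a known target of beta-catenin. DKK1 had 1313 normalized reads in the shared DETA/NO library and 1142 in DETA/NO library 3, against 221, 204 and 213 in the untreated libraries. Both DETA/NO libraries lay far above all untreated libraries, a 5.78-fold difference of the means (log2 fold change 2.52 ± 0.080, SE; adjusted p = 5.26e-22). The gene lies on chromosome 10 (GRCh38, 52314296 to 52318042, plus strand). PRKG1-AS1, whose exons share 9.6% of the exon bases of DKK1, had 18.8 and 13.3 normalized reads in DETA/NO libraries and 2.87, 4.90 and 4.62 in untreated libraries, so that its counts are small beside those of DKK1.

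Promoters were sought for the called Wnt genes with the largest changes, DKK1, WNT5A, FZD2, SOSTDC1, AXIN2 and NKD1. Of these, only DKK1 and WNT5A had a matched promoter, so FZD2, SOSTDC1, AXIN2 and NKD1 were not searched for motifs. Each promoter shown runs from 250 bases before to 50 after the RefSeq start (GRCh38.p14), 5′ to 3′ on the gene's strand. RefSeq promoters were matched by symbol for 29 of the 44 genes. Capitals mark the TCF/LEF core CTTTGA on either strand (TCAAAG on the other) and a TATAAA element on the gene's own strand; the motifs do not overlap. The DKK1 sequence is chr10:52314031-52314330 (plus strand), and the WNT5A sequences, from 2 annotated starts, are chr3:55487257-55487556 and chr3:55481349-55481648 (minus strand).
DKK1: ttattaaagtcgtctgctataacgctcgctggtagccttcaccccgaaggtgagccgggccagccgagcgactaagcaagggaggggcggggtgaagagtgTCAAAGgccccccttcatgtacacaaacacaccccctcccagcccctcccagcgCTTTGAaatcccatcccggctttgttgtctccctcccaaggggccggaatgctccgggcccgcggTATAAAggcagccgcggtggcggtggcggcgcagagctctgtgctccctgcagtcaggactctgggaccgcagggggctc
WNT5A, upstream start: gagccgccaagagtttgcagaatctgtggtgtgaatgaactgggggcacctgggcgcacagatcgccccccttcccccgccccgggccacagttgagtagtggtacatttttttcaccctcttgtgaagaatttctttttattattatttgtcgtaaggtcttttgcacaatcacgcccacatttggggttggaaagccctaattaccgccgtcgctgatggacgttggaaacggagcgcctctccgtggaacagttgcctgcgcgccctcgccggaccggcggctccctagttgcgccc
WNT5A, downstream start: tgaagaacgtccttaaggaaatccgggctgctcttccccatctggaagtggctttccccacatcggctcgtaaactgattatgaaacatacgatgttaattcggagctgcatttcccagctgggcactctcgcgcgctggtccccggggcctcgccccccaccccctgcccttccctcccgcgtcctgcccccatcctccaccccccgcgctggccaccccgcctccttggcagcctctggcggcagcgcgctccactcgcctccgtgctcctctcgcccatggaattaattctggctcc
The DKK1 promoter held TCAAAG at -149 to -144, CTTTGA at -95 to -90 and TATAAA at -30 to -25, counting the start base as 0. The core in either orientation was found in 12.9% of 35116 promoters, more than once in 1.3%, and TATAAA in 7.3%. Among the 39 promoters of the 29 matched Wnt genes, those of DKK1 and PORCN held the core. The longer form CTTTGAT, sought on both strands, was in 0 of the 39, DKK1 included, and in 2.6% of all promoters. These letters were in neither WNT5A window. GC content was 63.7% in the DKK1 window and 56.3% and 63.7% in the WNT5A windows, with a median of 58.7% over all promoters. A match is a description of letters and does not show a bound site.

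SOSTDC1, which binds LRP5 and LRP6 and also bone morphogenetic proteins, had 192 normalized reads in the shared DETA/NO library and 216 in DETA/NO library 3, against 651, 711 and 655 in the untreated libraries. The DETA/NO level was 0.303 times the untreated level, with no overlap (log2 fold change -1.72 ± 0.081, SE; adjusted p = 1.37e-17). SOSTDC1 lies on chromosome 7 at 16461481 to 16530580. SFRP1, a decoy that binds Wnt proteins outside the cell, had the highest level per kilobase of exon of these antagonists, at 2030 ± 84.2 normalized reads in DETA/NO libraries and 2388 ± 67.9 in untreated libraries (SD, n = 2 and 3). In all it had 9947 and 9380 normalized reads in the DETA/NO libraries and 11541, 11566 and 10994 in the untreated libraries. It fell by 0.23 on the log2 scale (adjusted p = 4.39e-07), and all DETA/NO values lay below all untreated values. WIF1, another secreted Wnt-binding inhibitor, had 55.4 and 44.6 in DETA/NO libraries and 42.1, 33.4 and 44.4 in untreated libraries and was not called (adjusted p = 0.243).

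Per kilobase of exon, which allows levels of different genes to be set side by side, the 5 listed secreted antagonists summed to 2786 and 2595 normalized reads in DETA/NO libraries and to 2806, 2824 and 2690 in untreated libraries, ranges that overlapped. The make-up of that sum differed. DKK1 held 20.7% ± 0.994 of it in DETA/NO libraries (SD, n = 2) and 3.47% ± 0.173 in untreated libraries (SD, n = 3). SOSTDC1 held 3.07% ± 0.408 in DETA/NO libraries and 9.80% ± 0.403 in untreated libraries. SFRP1 held 75.5% ± 0.668 in DETA/NO libraries and 86.1% ± 0.280 in untreated libraries. These shares are descriptions and were not tested.

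**Figure D2:**
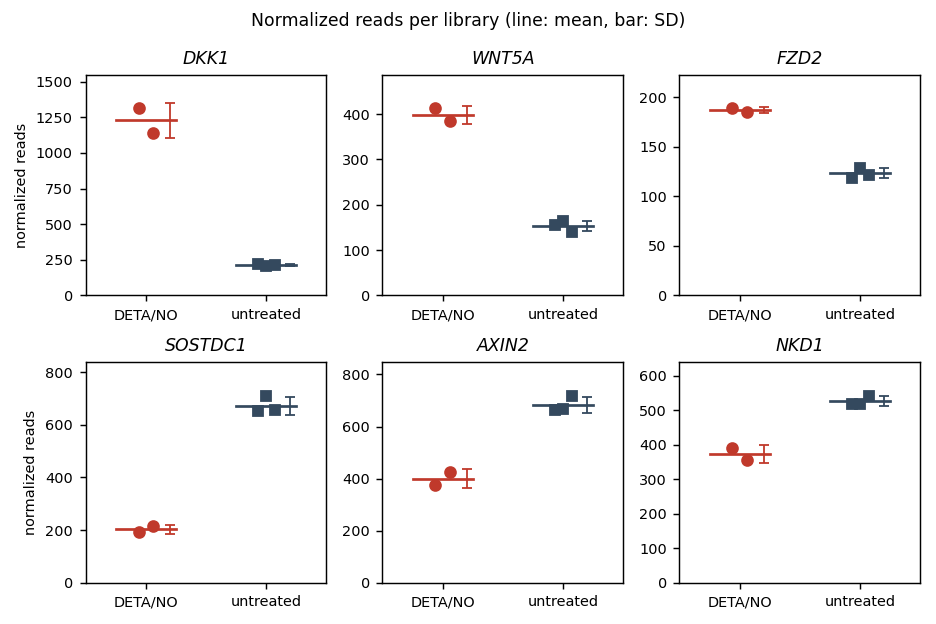
Normalized reads of 6 Wnt genes in each library, DETA/NO (red circles, n = 2) left of untreated (dark squares, n = 3), on axes that start at 0; lines are means and bars SDs. In DKK1, WNT5A and FZD2 both DETA/NO libraries lie above all untreated libraries, and in SOSTDC1, AXIN2 and NKD1 below them.

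Among the ligands, WNT5A rose most. It had 413 and 384 normalized reads in the DETA/NO libraries, against 155, 164 and 141 in the untreated libraries. The groups did not overlap and the means differed 2.60-fold (log2 fold change 1.37 ± 0.10, SE; adjusted p = 1.53e-12). WNT5A lies on chromosome 3 at 55465715 to 55490539, on the minus strand. Its close relative WNT5B, at 111 and 95.9 in DETA/NO libraries and 114, 114 and 106 in untreated libraries, was not called (adjusted p = 0.571). WNT9A, a ligand known from joint development in mice, rose to 582 and 661 in DETA/NO libraries, against 432, 448 and 549 in untreated libraries (log2 fold change 0.39 ± 0.091, SE; adjusted p = 0.00167), with untreated library 3 closest to the DETA/NO values. Its adjusted p was 0.0928 in limma without the mean-variance trend and the robust option.

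The other ligands changed less. WNT6 had 1997 and 2008 normalized reads in DETA/NO libraries and 2212, 2143 and 2322 in untreated libraries, and fell by 0.15 on the log2 scale (adjusted p = 0.00409, and 0.0858 without the trend and robust option). WNT4, which acts downstream of progesterone in the mammary gland of mice, had 225 in both DETA/NO libraries and 259, 278 and 262 in untreated libraries (log2 fold change -0.24 ± 0.096, SE; adjusted p = 0.0435). That call rests on all 5 libraries: leaving out each in turn gave adjusted p from 0.0534 (without untreated library 3) to 0.138 (without untreated library 2), with 0.129 once the shared library was left out, 0.122 on leaving out DETA/NO library 3 and 0.0621 without untreated library 1. DESeq2 gave WNT4 an adjusted p of 0.173. WNT3A, a ligand that typically acts through beta-catenin, had 17.7 and 23.7 in DETA/NO libraries and 31.5, 29.4 and 34.2 in untreated libraries. Its groups did not overlap, and it was not called (log2 fold change -0.60 ± 0.26, SE; adjusted p = 0.0650). It passed in limma without the trend and robust option (0.0418) and with the identical files counted as 2 replicates (0.0116). WNT7B had 2413 and 2592 in DETA/NO libraries and 2549, 2470 and 2486 in untreated libraries (log2 fold change -0.00012 ± 0.040, SE). WNT3, WNT10A and WNT10B had log2 fold changes of 0.16, 0.11 and 0.37, with adjusted p of 0.482, 0.200 and 0.317 (0.0472 for WNT10B without the trend and robust option).

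Set per kilobase of exon, the ligands kept nearly the same order in both groups. WNT6 came first, with 1176 ± 4.83 normalized reads per kilobase in DETA/NO libraries and 1307 ± 52.8 in untreated libraries (SD, n = 2 and 3). WNT7B followed with 496 ± 25.1 in DETA/NO and 495 ± 8.24 in untreated libraries, then WNT10A with 186 ± 3.52 in DETA/NO and 172 ± 9.35 in untreated libraries. WNT9A came next with 156 ± 14.1 in DETA/NO libraries and 120 ± 16 in untreated libraries. WNT5A stood above WNT4 in DETA/NO libraries, at 53.9 ± 2.84 against 49.7 ± 0.0179 for WNT4. In untreated libraries WNT5A stood below WNT4 and WNT5B, at 20.7 ± 1.53 against 58.8 ± 2.23 for WNT4 and 25.8 ± 1.00 for WNT5B, and its libraries overlapped those of WNT3 at 18 ± 2.81. At the low end WNT10B stood above WNT3A in DETA/NO libraries, at 9.66 ± 1.15 against 7.07 ± 1.45, and below it in untreated libraries, at 7.37 ± 0.421 against 10.8 ± 0.814, though neither gene was called. WNT5A held 2.47% ± 0.183 of the summed ligand level per kilobase in DETA/NO libraries and 0.928% ± 0.0972 in untreated libraries, while WNT6 held 53.9% ± 0.927 in DETA/NO libraries and 58.4% ± 0.488 in untreated libraries. Exon lengths are those of all annotated transcripts merged, unused exons included.

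**Figure D3:**
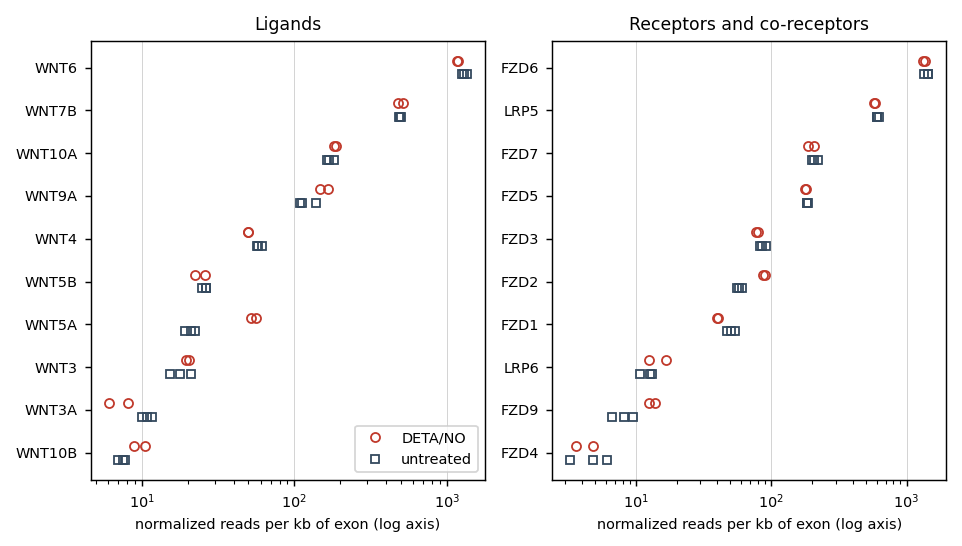
Normalized reads per kilobase of exon on a log axis for the 10 tested ligands (left) and the 10 tested receptors and co-receptors (right), 1 symbol per library, DETA/NO as red circles above untreated as dark squares. WNT6 and FZD6 have the highest values, above 1000 per kilobase in every library, and among called ligands WNT5A has its groups farthest apart.

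PORCN, the enzyme that attaches the lipid Wnt proteins need for release, had 262 and 277 normalized reads in DETA/NO libraries and 264, 233 and 247 in untreated libraries, with overlapping groups and no call (adjusted p = 0.341).

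Among the Frizzled receptors, FZD2 rose and FZD1 and FZD3 fell. FZD2, a receptor that WNT5A can use, had 189 and 185 normalized reads in DETA/NO libraries, against 119, 129 and 122 in untreated libraries. All DETA/NO values lay above all untreated values (log2 fold change 0.60 ± 0.12, SE; adjusted p = 0.000141). FZD2 is on chromosome 17 at 44557459 to 44559570. FZD1 fell to 279 and 283 in DETA/NO libraries, against 349, 376 and 328 in untreated libraries (log2 fold change -0.32; adjusted p = 0.00413). FZD3, known for its part in axon guidance in mice, had 1059 and 1095 in DETA/NO libraries and 1260, 1130 and 1188 in untreated libraries (log2 fold change -0.15; adjusted p = 0.0282). Without untreated library 1 FZD3 had an adjusted p of 0.167, and once the shared library was left out one of 0.165, and in DESeq2 one of 0.109. Per kilobase, FZD2 stood above FZD3 in DETA/NO libraries, at 88.7 ± 1.44 against 78.1 ± 1.82, and below it in untreated libraries, at 58.2 ± 2.40 against 86.5 ± 4.71.

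FZD6 was the main Frizzled by level and held 69.1% ± 0.172 of the summed Frizzled level per kilobase in DETA/NO libraries and 70.1% ± 0.431 in untreated libraries. It had 5350 and 5600 normalized reads in DETA/NO libraries and 5903, 5885 and 5486 in untreated libraries, with overlap (log2 fold change -0.072; adjusted p = 0.103, with 0.00482 without untreated library 3 and 0.0229 under quantile normalization). Behind it came FZD7 with 197 ± 13.2 per kilobase in DETA/NO and 209.9 ± 9.59 in untreated libraries, and FZD5 with 179.7 ± 1.66 in DETA/NO and 185 ± 2.08 in untreated libraries. Neither FZD7 nor FZD5 was called (adjusted p = 0.264 and 0.495). FZD9 had 32.1 and 29.4 in DETA/NO libraries and 19.1, 15.7 and 22.2 in untreated libraries (log2 fold change 0.68 ± 0.28, SE; adjusted p = 0.0512). The groups did not overlap, and the value lies just outside the threshold. FZD9 passed in 6 alternatives: without untreated library 3 (0.0369), without the trend and robust option (0.0373), under quantile normalization (0.0486), with a pseudocount of 5 (0.0460), with the filter on the untreated mean (0.0495) and with the identical files counted as 2 replicates (0.00921). FZD4 was low and uncertain, with 4.2 ± 0.849 per kilobase in DETA/NO and 4.71 ± 1.42 in untreated libraries (adjusted p = 0.728). Other genes span 92% of its exon bases, and one of these, PRSS23, rose by 1.00 on the log2 scale.

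The co-receptor LRP5 had 3545 and 3594 normalized reads in DETA/NO libraries and 3719, 3737 and 3836 in untreated libraries. The groups did not overlap, but the difference of -0.076 ± 0.035 on the log2 scale did not pass (adjusted p = 0.0788). It passed under quantile normalization (0.0169) and with the identical files counted as 2 replicates (0.0141). LRP6, the other co-receptor, had 173 and 130.1 in DETA/NO libraries and 136, 131 and 111 in untreated libraries, with overlap (adjusted p = 0.142, and 0.0244 on leaving out DETA/NO library 3). Other genes span 93% of the exon bases of LRP6, though their exons share 0% of them. How reads in such spans were counted is not given, and the level of LRP6 is uncertain. One of the genes that span it, BCL2L14, changed by -0.39 on the log2 scale (adjusted p = 0.000861).

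In the cytoplasm the paralogous scaffolds AXIN1 and AXIN2 moved in opposite directions. AXIN1, the constitutive scaffold of the destruction complex, had 1411 and 1350 normalized reads in DETA/NO libraries, against 1068, 1027 and 1088 in untreated libraries. It rose by 0.38 ± 0.051 on the log2 scale (SE; adjusted p = 3.00e-07) with no overlap. AXIN2, a scaffold that beta-catenin itself induces and a common readout of the pathway, had 375 and 425 in DETA/NO libraries, against 662, 667 and 719 in untreated libraries. The DETA/NO level was 0.586 times the untreated level (log2 fold change -0.77 ± 0.073, SE; adjusted p = 2.36e-10), again with no overlap. AXIN1 is on chromosome 16 at 287440 to 352673 and AXIN2 on chromosome 17 at 65528563 to 65561647. Exons of other genes on the same strand share 25.2% of the exon bases of AXIN2, and 45% of them lie within spans of other genes. How reads there were counted is not given. The overlapping AC004805.1 had 18.8 and 19.9 normalized reads in DETA/NO libraries and 29.6, 32.4 and 27.7 in untreated libraries. It was also lower but not called (log2 fold change -0.6; limma adjusted p = 0.07).

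Beta-catenin mRNA, from CTNNB1, had one of the higher levels per kilobase in the list, at 1207 ± 73.7 in DETA/NO libraries and 1270 ± 21.8 in untreated libraries. In all there were 13770 and 15013 normalized reads in DETA/NO libraries and 14928, 15437 and 15085 in untreated libraries. DETA/NO library 3 lay within the untreated range and the shared library below it (log2 fold change -0.075 ± 0.032, SE; adjusted p = 0.0601). CTNNB1 passed as lower on leaving out DETA/NO library 3 (adjusted p = 0.00243) and without untreated library 3 (adjusted p = 0.0377). With all libraries kept, it also passed under quantile normalization (0.00161), with no filter (0.0226) and with the identical files counted as 2 replicates (0.0298). APC, whose protein holds the destruction complex together, had 463 and 556 in DETA/NO libraries and 482, 545 and 483 in untreated libraries and was not called (adjusted p = 0.915). For APC, 81.3% of exon bases lie within spans of other genes.

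NKD1, which encodes Naked cuticle 1, an inhibitor that binds Dishevelled and is induced by the pathway, had 391 and 356 normalized reads in DETA/NO libraries, against 519, 519 and 543 in untreated libraries. It fell by 0.50 on the log2 scale (SE 0.076; adjusted p = 2.43e-06), and all DETA/NO values lay below all untreated values. NKD1 is on chromosome 16 at 50548330 to 50649249.

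Of the TCF/LEF factors, which bring beta-catenin to DNA, TCF7 was called. It had 1192 and 1194 normalized reads in DETA/NO libraries and 1115, 1075 and 1067 in untreated libraries (log2 fold change 0.14 ± 0.051, SE; adjusted p = 0.0311). Its adjusted p was 0.107 when either DETA/NO library was left out, 0.0887 without untreated library 2 and 0.0584 without untreated library 3, and also 0.107 in DESeq2. TCF7L1 and TCF7L2 had log2 fold changes of -0.019 and 0.014 with overlapping libraries (adjusted p = 0.757 and 0.829). Per kilobase TCF7L1 was the highest, at 438 ± 18.9 in DETA/NO and 443 ± 10.9 in untreated libraries, followed by TCF7L2 at 242 ± 5.73 in DETA/NO and 239 ± 2.87 in untreated libraries and TCF7 at 119 ± 0.0951 in DETA/NO and 108 ± 2.59 in untreated libraries.

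The R-spondin receptors LGR4 and LGR6, which on binding R-spondins raise the amount of Frizzled at the cell surface, moved in opposite directions. LGR4 had 6669 and 6675 normalized reads in DETA/NO libraries and 6137, 6236 and 6036 in untreated libraries (log2 fold change 0.12; adjusted p = 0.00234, but 0.0754 without the trend and robust option). LGR6 had 206 and 189.9 in DETA/NO libraries and 244, 226 and 293 in untreated libraries (log2 fold change -0.35; adjusted p = 0.00980). The groups of LGR6 did not overlap, but its adjusted p was 0.0833 on leaving out DETA/NO library 3 and 0.0820 without untreated library 3, and 0.0520 in DESeq2. ZNRF3, a ubiquitin ligase that removes Frizzled from the surface and is also a target of the pathway, had 1264 and 1328 in DETA/NO libraries and 1255, 1177 and 1212 in untreated libraries and was not called (adjusted p = 0.139).

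The genes of the list best known as direct feedback targets of beta-catenin did not share a direction. AXIN2 and NKD1 fell, DKK1 and TCF7 rose, ZNRF3 was not called, and LEF1, LGR5 and RNF43 could not be tested. The rise of TCF7 was 0.14 on the log2 scale, and its call was lost in 8 of 18 alternatives. Among 19 further target genes listed as known in other tissues, 15 could be tested, of which 3 rose and 4 fell, together 46.7% against 43.4% of all tested genes, with a median log2 fold change of 0.067. On the log2 scale, CD44, a hyaluronan receptor, rose by 0.27 and CCND1, cyclin D1, by 0.27. The Eph receptors EPHB2 and EPHB3 had log2 fold changes of -0.43 and -0.50, and the protease MMP7 one of -0.46. PPARD rose by 0.11 but had an adjusted p of 0.537 on leaving out DETA/NO library 3, of 0.155 without untreated library 1 and of 0.167 without untreated library 2. SALL4, a zinc finger factor at 13.8 normalized reads in DETA/NO and 29.2 in untreated libraries, changed by -1.01 on the log2 scale (adjusted p = 0.00617, and 0.0511 without untreated library 1).

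Of 78 other pathway genes, 56 could be tested, of which 19 rose (33.9%) and 15 fell (26.8%), together 60.7%, with a median log2 fold change of 0.088. Over all tested genes 21.7% rose and 21.7% fell, together 43.4%, and of those with a mean above 1000 together 57.9% were called. Fewer of the 56 were called lower without DETA/NO library 3. Leaving out any single library also lowered the number of genes called in each direction over all tested genes. All 16 listed nuclear partners of beta-catenin and TCF were tested, of which 7 rose (43.8%) and 6 fell (37.5%). The TLE genes, whose full-length proteins silence TCF targets when beta-catenin is absent, divided. TLE3 had 7662 and 8128 normalized reads in DETA/NO libraries, against 12361, 12203 and 12681 in untreated libraries, with no overlap (log2 fold change -0.65 ± 0.031, SE; adjusted p = 2.54e-17). TLE2 had a log2 fold change of -0.54 and the shorter TLE5 one of -0.17, while TLE4 rose by 0.45 and TLE1 by 0.43 on the same scale. The groups of TLE4 did not overlap either. The coactivator CREBBP rose by 0.22 and the chromatin remodeller CHD8 by 0.19 (adjusted p = 0.051 for CHD8 in limma without the trend and robust option). PYGO2, an adaptor that binds BCL9, had a log2 fold change of -0.18, with adjusted p of 0.0595 on leaving out DETA/NO library 3 and 0.0593 without untreated library 2.

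Of 21 tested cytoplasmic components, 9 rose (42.9%) and 2 fell (9.5%), together 52.4%. Of all tested genes 21.7% rose and 21.7% fell, and of those with a mean above 1000 together 57.9% were called. The difference was not tested. Of the 9 that rose, FBXW11 lost its call in 10 of 18 alternatives, GSK3B and APC2 in 7 each and PRICKLE1 in 1. DVL1, one of the Dishevelled proteins that relay the signal from Frizzled, had 1120 and 1118 normalized reads in DETA/NO libraries and 781, 826 and 846 in untreated libraries (log2 fold change 0.45; adjusted p = 6.82e-08). On the log2 scale DVL3 rose by 0.21, the kinase gene GSK3A by 0.23, and PRICKLE2, of the planar polarity branch, by 0.66. TNKS2, which marks AXIN for degradation, changed by -0.11 on the log2 scale. Its call was lost in 3 of 18 alternatives, with adjusted p of 0.131 in limma without the trend and robust option and 0.0518 without untreated library 2. BTRC, the ubiquitin ligase subunit that recognises beta-catenin, changed by -0.17 (adjusted p = 0.0866 on leaving out DETA/NO library 3 and 0.0621 without untreated library 1). Of 13 tested membrane genes 3 rose (23.1%) and 4 fell (30.8%). GPC4 rose by 0.35 and RYK, a receptor for WNT5A, by 0.15 (adjusted p = 0.0708 for RYK in limma without the trend and robust option). CELSR3 rose by 0.49, with an adjusted p of 0.0530 once the shared library was left out. CELSR1, CELSR2 and KREMEN1, the last a partner of DKK1 at LRP6, had log2 fold changes of -0.33, -0.22 and -0.43. PTK7 had one of -0.1 (adjusted p = 0.184 on leaving out DETA/NO library 3 and 0.0617 without untreated library 3).

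Other secreted inhibitors and ligands were mostly under the filter. Of 9 further genes listed as antagonists 2 were tested and both fell, while 21.7% of all tested genes fell. APCDD1, a membrane inhibitor, had 557 and 589.7 normalized reads in DETA/NO libraries and 723, 791 and 892 in untreated libraries (log2 fold change -0.48; adjusted p = 4.29e-06). DKKL1 had 18.8 and 27.5 in DETA/NO libraries and 40.1, 34.3 and 47.1 in untreated libraries (log2 fold change -0.79; adjusted p = 0.0106). The DKKL1 call was lost in 3 of 17 alternatives. Its adjusted p was 0.097 in DESeq2 and 0.0554 in limma without the trend and robust option. Once the shared library was left out, its log2 fold change was -0.53. Of 13 further ligands and release factors 4 were tested. WNT2B was called lower, at -0.31 on the log2 scale (adjusted p = 0.0482), a call that was lost on leaving out untreated library 2 (adjusted p = 0.102), untreated library 3 (0.228), the shared library (0.139) or DETA/NO library 3 (0.111).

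The 2 DETA/NO libraries resembled each other in these genes about as much as in others. Their log2 values differed by a median of 0.096 over the 36 tested Wnt genes and 0.082 over all tested genes. Over the untreated mean, DKK1 was higher by 2.62 in the shared DETA/NO library and 2.42 in DETA/NO library 3, WNT5A by 1.43 and 1.32, and FZD2 by 0.62 and 0.59, all on the log2 scale. In the same order of libraries SOSTDC1 lay at -1.80 and -1.64, AXIN2 at -0.86 and -0.68, and NKD1 at -0.43 and -0.56.

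**Figure D4:**
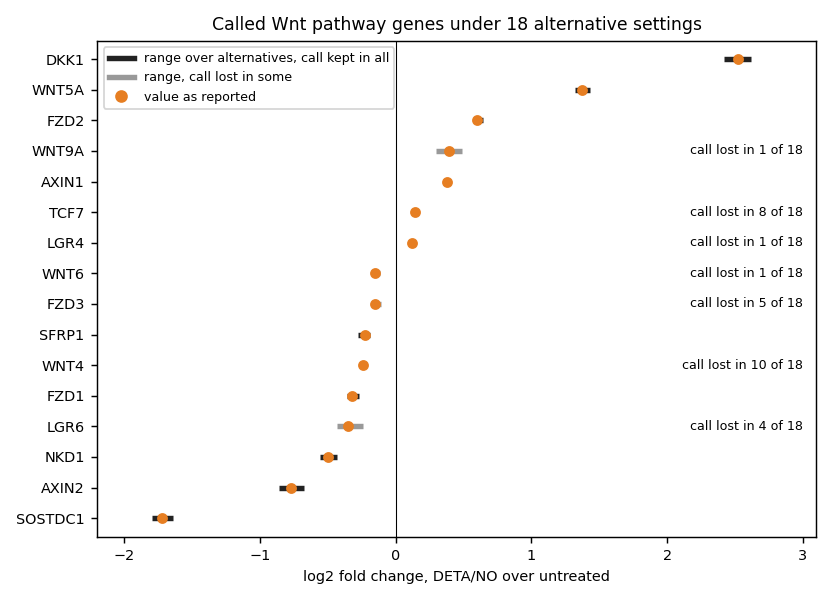
Log2 fold change, DETA/NO over untreated, of the 16 called Wnt genes: the reported value as a point and the range over 18 alternative settings as a bar, black where the call was kept in all 18 and grey where it was lost in some. DKK1 ranged from 2.42 to 2.62 and SOSTDC1 from -1.80 to -1.64, and 9 of the 16 genes kept their call in every setting.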

How the data were processed

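The 6 labelled samples are total RNA libraries of MDA-MB-468 cells, grouped by treatment label. The deposited files hold 1 normalized count (signal) per gene, and 27 of their row names look like dates. Per the submitters' processing notes, the tools included TopHat2 2.1.1, Bowtie2 2.5.0.0, featureCounts 2.0.3 and DESeq2 1.38.3, with GRCh38; annotation, strand setting and treatment of shared exons are not given in the sources used here. Across all libraries, 100% of values came out as whole reads times 1 factor (tolerance 0.01), and these reads gave the depths and entered the count tests.

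The main test was limma 3.58.1 (R 4.3.3), with trended, robust empirical Bayes variances, on log2(value + 1). It covered the 16409 genes with a mean of at least 10 over the 5 distinct libraries, with Benjamini-Hochberg adjustment over all of them at 0.05. On this scale the change of low genes is understated. Count tests (edgeR 4.0.16, DESeq2 1.42.0), scaling, pseudocount, filter, blocks by replicate number and omission of single libraries were varied. In a test on simulated counts of 16409 genes for DETA/NO against untreated, limma found 72% of genes with a 1.5-fold change, 86% with 2-fold, 98% with 4-fold and 96% with 8-fold. Each share is of 50 changed genes, and 16209 genes were left unchanged. In the data 43.4% of genes were called, so these shares do not measure the sensitivity of the reported test.

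Positions, exon lengths and overlaps come from GENCODE release 29 (GRCh38) and promoters from RefSeq (GRCh38.p14). Every tested Wnt gene is named, and of the other lists up to 4 called genes in each direction by smallest adjusted p. Further called genes of those lists are named only where their call was lost in some alternatives. The members and lists were chosen with earlier results of these data known. Other steps used Python 3.11.15. 1 immune marker is not reported here.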

Additional observations from a re-analysis of the deposited data

How the results depend on the processing

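Of the 16 called Wnt genes, 9 kept their call under all 18 alternatives: DKK1, WNT5A, FZD2, AXIN1, FZD1, SFRP1, NKD1, AXIN2 and SOSTDC1. The others lost it in at least 1, and no called Wnt gene changed direction. Leaving out 1 library gave 6 to 7 Wnt genes higher and 7 to 9 lower, 2795 to 3550 of all genes higher and 2801 to 3502 lower, 15 to 19 other pathway genes higher and 9 to 14 lower, and a median log2 fold change of the Wnt genes from -0.028 to 0.007. limma without the trend and robust option called 2262 genes higher over all genes, and 11 other pathway genes higher and 8 lower. DESeq2 called 9 other pathway genes lower. It also called fewer genes than the main test in each direction over all genes. Among the Wnt genes it called 6 higher and 6 lower, against 7 and 9 in the main test. The cause was not tested. Of the 20 uncalled Wnt genes 7 passed in at least 1 alternative. Of 41 called genes of the other lists 20 lost the call in at least 1, and 0 changed direction.

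Signs changed only in uncalled Wnt genes. WNT7B had 0.0034 in edgeR and in DESeq2 and 0.0013 under TMM scaling, and APC -0.03 with the identical files counted as 2 replicates. Leaving out 1 library gave log2 fold changes from -0.052 to 0.051 in WNT7B, from -0.36 to 0.073 in FZD4, from -0.12 to 0.14 in APC (at most 0.072 with the shared DETA/NO library kept), from -0.063 to 0.025 in TCF7L1 and from -0.0098 to 0.039 in TCF7L2.

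The replicate block gave 6 Wnt genes higher and 8 lower with the shared DETA/NO library as number 1, and 7 and 7 with it as number 2, where WNT7B had 0.013, FZD4 0.073 and APC -0.018. In the first block WNT4 (adjusted p = 0.136) and TCF7 (0.0834) lost their call, and in the second WNT4 (0.0564) and FZD3 (0.154). The labels do not say what the replicate numbers share. Deviations from the group means correlated at -0.03 to 0.03 between DETA/NO and untreated libraries, and with 2 DETA/NO libraries these are mirror images. Among all genes with a mean of 10 to 100 normalized reads 22.6% were called, against 57.9% above 1000, and the part of depth in this was not tested. Reads in exons shared with other genes are uncertain.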

Other observations

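Some Wnt genes of the list are neighbours on the chromosome, and 2 pairs lie within 100 kb of each other. WNT6 and WNT10A, on chromosome 2 and 6.1 kb apart on the same strand, had log2 fold changes of -0.15 (called lower) and 0.11 (not called). WNT9A and WNT3A, on chromosome 1 and 59.2 kb apart on opposite strands, had log2 fold changes of 0.39 (called higher) and -0.60 (not called). In both cases the neighbours had DETA/NO libraries on opposite sides of all untreated libraries. For WNT10A the gap was narrow, with 625 and 642 normalized reads in DETA/NO libraries and 578, 561 and 623 in untreated libraries. Over all tested genes, DETA/NO libraries lay wholly above the untreated ones in 30.4% and wholly below in 30.8%. The difference between neighbours was not tested.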
